A study of Mus musculus with 18 samples.

Results

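Metallothionein and metal transporter mRNAs were followed in mouse liver through 6 genes taken by symbol from the deposited expression table: *Mt1*, *Mt2*, *Slc30a1*, *Slc30a10*, *Slc39a4* and *Slc39a14*. They are 6 of the 37303 genes in that table. Livers came from 18 mice in 6 groups of 3: wild type (WT), Gcn2-/- and Atf4-/- mice, each given PBS or L-asparaginase (ASNase, as Elspar). ASNase is an enzyme drug that breaks down circulating asparagine and, less efficiently, glutamine. All mice were on the C57BL/6J background, and the deletions of GCN2 (encoded by *Eif2ak4*), a kinase that senses amino acid scarcity, and of ATF4, a transcription factor translated more in that state, were present in every tissue. ASNase at 3 IU per gram body weight, or an equal volume of PBS, was injected into the peritoneum once a day for 8 days, and livers were taken 7.5 h after the last injection. The sample labels gave ages of 8 to 16 weeks in one field and an upper limit of 12 weeks in another. Males made up 1 of the 3 mice in WT PBS, Gcn2-/- PBS and Gcn2-/- ASNase, and 2 of the 3 in each remaining group. The study asked how loss of either gene alters the liver's response to ASNase.

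Metallothioneins are small cysteine-rich proteins that bind zinc and copper in the cytosol, and liver is a main site of their synthesis. Their genes are switched on by the zinc-sensing transcription factor MTF1, and also by glucocorticoids and by interleukin-6 acting through STAT3. Zinc is carried out of the cytosol by SLC30 (ZnT) proteins and into it by SLC39 (ZIP) proteins, some of which also carry manganese or iron.

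Of the 6 genes, 4 had a promoter in the RefSeq set for GRCm38.p6, a window of 250 bases before to 50 after the start. The windows of *Mt1*, *Mt2* and *Slc30a1* are shown because all 3 genes are textbook targets of MTF1, and the capitals mark the core of the metal response element that MTF1 binds, searched as TGCACNC and TGCGCNC on both strands. They lie at chr8:94178839-94179138 (*Mt1*), chr8:94172368-94172667 (*Mt2*) and chr1:191906531-191906830 (*Slc30a1*), each on the plus strand, and read 5′ to 3′:
Mt1: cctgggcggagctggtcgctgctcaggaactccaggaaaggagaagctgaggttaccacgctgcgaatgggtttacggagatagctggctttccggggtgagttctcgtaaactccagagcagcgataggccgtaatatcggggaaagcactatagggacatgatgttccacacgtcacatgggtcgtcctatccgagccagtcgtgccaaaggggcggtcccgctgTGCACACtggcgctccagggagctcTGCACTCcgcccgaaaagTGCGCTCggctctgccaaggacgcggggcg
Mt2: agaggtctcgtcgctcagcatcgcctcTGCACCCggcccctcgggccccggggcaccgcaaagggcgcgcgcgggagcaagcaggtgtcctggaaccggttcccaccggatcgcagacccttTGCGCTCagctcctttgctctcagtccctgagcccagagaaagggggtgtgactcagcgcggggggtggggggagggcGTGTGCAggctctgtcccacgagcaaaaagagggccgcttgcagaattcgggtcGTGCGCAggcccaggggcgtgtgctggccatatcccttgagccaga
Slc30a1: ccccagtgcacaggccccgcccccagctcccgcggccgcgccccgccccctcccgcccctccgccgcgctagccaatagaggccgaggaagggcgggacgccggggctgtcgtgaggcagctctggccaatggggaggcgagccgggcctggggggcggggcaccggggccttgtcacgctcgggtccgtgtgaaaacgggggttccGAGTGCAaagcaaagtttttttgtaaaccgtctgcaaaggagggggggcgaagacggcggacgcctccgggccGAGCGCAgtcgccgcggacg
The *Mt1* window held 3 cores, the *Mt2* window 4 and the *Slc30a1* window 2. The *Slc30a10* window held 3 matches, all TGCGCNC, of which 2 overlapped on opposite strands. Among 32851 promoters of the same length, 25.7% held at least 1 core, 7.11% at least 2, 1.97% at least 3 and 0.517% at least 4. The STAT site TTCNNNGAA (8.3% of promoters) and the C/EBP-ATF core TGATGNAA (3.97%) had 0 matches in the 4 windows, which says only that these letters are not in these windows. The antioxidant response element core TGACNNNGC (12.4%) matched once in *Mt2* and once in *Slc30a1*.

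Every expression value is an FPKM, a fragment count scaled for transcript length and library size, that Cuffdiff estimated for a group from its 3 libraries together, here given with its Cuffdiff interval in parentheses. Values of single mice were not used here, so no SD, p-value or replicate check can be given, and depth per library is not in the table. A gene was called different between 2 groups when FPKM was over 3 in either, both estimates were valid (status OK) and not 0, the difference of log2(FPKM + 0.1) was over 1.5 in size, and the 2 intervals did not overlap. Where a difference is followed by a range, that range combines the 2 intervals on the log2 scale. This scale understates changes of low genes. In whole tissue, fewer cells of a type and less RNA per cell cannot be told apart.

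The tissue and the labels were checked before the comparisons. All 6 hepatocyte markers were over an FPKM of 1 in 5 groups, and in Atf4-/- PBS 5 were, the other (*Serpina1a*) having no valid estimate. Their summed FPKM was 22156 to 33595 in the 4 groups given PBS or of WT genotype, 9269 in Gcn2-/- ASNase and 6524 in Atf4-/- ASNase. These markers did not move alike. *Fabp1* went from 14306 with PBS to 1358 with ASNase in Gcn2-/-, and from 7629 to 46.6 in Atf4-/-, where it was called lower. *Cps1* went from 754 to 779 in Gcn2-/- and from 791 to 498 in Atf4-/-. Skeletal muscle markers (6 genes) summed to 611 with PBS and 883 with ASNase in WT, against 5.44 and 8.51 in Gcn2-/- and 48.8 and 92.2 in Atf4-/- livers. Pancreatic acinar markers (6 genes) were highest in Atf4-/- ASNase, at 281. Kupffer cell markers, 4 of 5 being in the table, summed to 110 to 235 in all groups but did not move together. *Marco* was called higher with ASNase in Gcn2-/- (8.32 to 118) and Atf4-/- (9.22 to 67.3), *Cd5l* was called lower in Atf4-/- (91.6 to 31.3), and *Clec4f* went from 67.3 to 15.9 and from 102 to 30.1 in the 2 knockouts without being called. Markers of small intestine, neutrophils and adipocytes summed to at most 117, 15.3 and 13.6. The part of these other cells in the results below was not tested, and since only group values were used, no library could be left out. *Atf4* was at 32.3 with PBS and 29.3 with ASNase in Atf4-/- livers, against 50.4 and 63.1 in WT and 60.0 and 68.1 in Gcn2-/-, and no pair of these intervals that sets Atf4-/- against WT with the same injection was separate. These gene-level values do not settle that label. The study itself reported the loss of *Atf4* from read density plots and also measured *Atf4* mRNA by RT-qPCR. *Eif2ak4* was at 2.31 and 2.96 in the Gcn2-/- groups against 3.04 and 2.39 in WT. The Gcn2 deletion removes part of the transcript, so this gene-level value does not check that label.

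**Figure D1:**
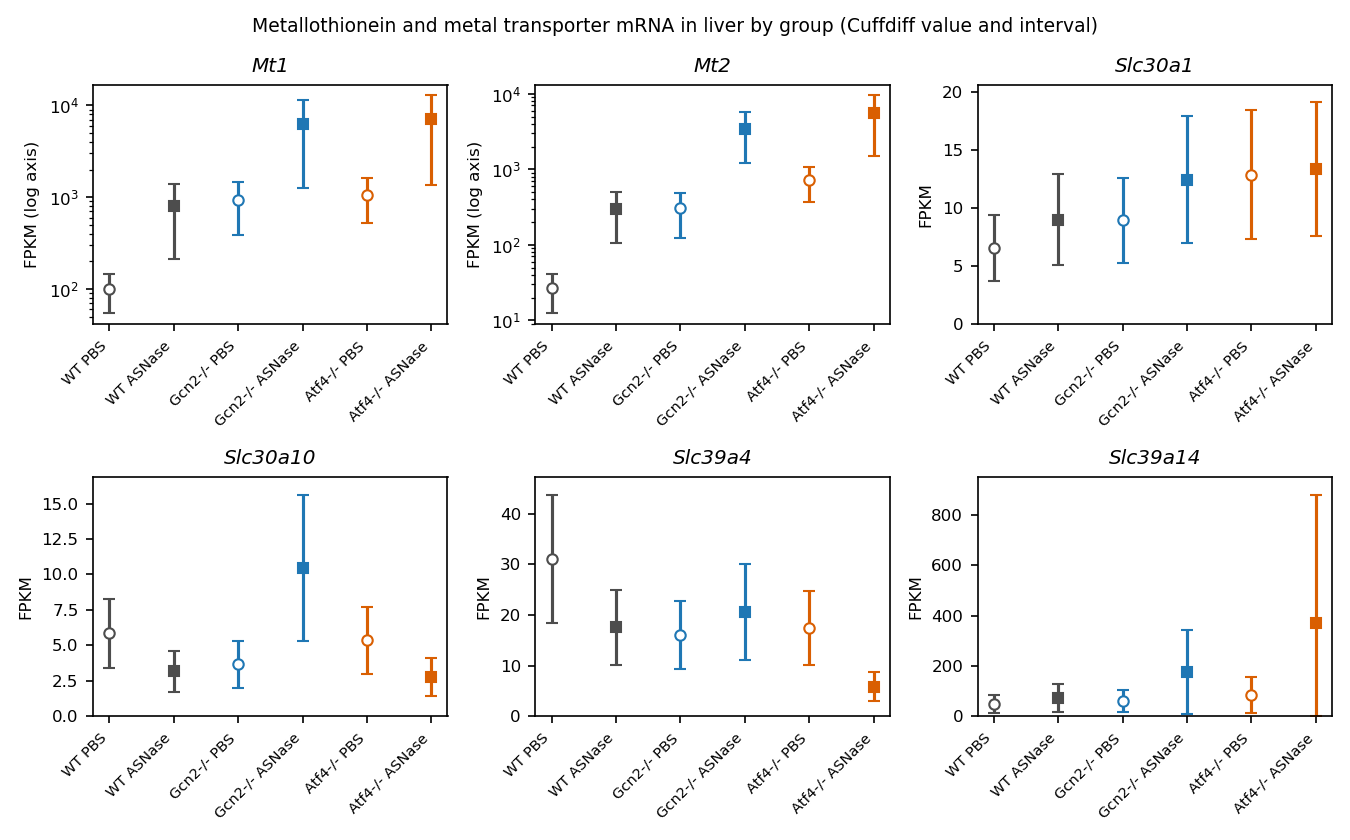
FPKM of the 6 genes in each group, points being the Cuffdiff value from 3 libraries together and bars its interval (open circles PBS, filled squares ASNase; log axis for Mt1 and Mt2, linear axis from 0 for the others). Mt1 and Mt2 are lowest in WT PBS and highest in the 2 knockout groups given ASNase, while Slc30a10 is highest in Gcn2-/- ASNase and Slc39a4 lowest in Atf4-/- ASNase.

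The metallothioneins held the widest range of the 6 genes and were lowest in WT liver given PBS. *Mt1* (ENSMUSG00000031765, GRCm38 chr8:94179082-94180327, plus strand) was at 100 (54.3 to 146) in WT PBS and 798 (214 to 1383) in WT ASNase. It was at 923 (390 to 1456) in Gcn2-/- PBS and 6287 (1252 to 11321) in Gcn2-/- ASNase, and at 1063 (522 to 1604) in Atf4-/- PBS and 7118 (1372 to 12864) in Atf4-/- ASNase. The interval of WT PBS lay below those of the 5 other groups, and those 5 overlapped one another. From lowest to highest group the *Mt1* value spanned 70.9-fold.

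*Mt2* (ENSMUSG00000031762, chr8:94172664-94173568, plus strand) lies 5514 bases upstream of *Mt1* and followed the same order of groups. It was at 27.0 (12.4 to 41.7) in WT PBS and 300.4 (107 to 494) in WT ASNase. Gcn2-/- livers had 306 (125 to 487) with PBS and 3444 (1199 to 5689) with ASNase, and Atf4-/- livers 721 (366 to 1076) and 5518 (1516 to 9520). The groups thus fell in 3 steps whose intervals did not overlap: WT PBS lowest, then WT ASNase with both knockouts under PBS, then both knockouts under ASNase. The span from lowest to highest was 204-fold. An antisense gene, Gm45774, overlaps *Mt2* and is not in the table, and the library kit did not keep strand, so its reads and those of *Mt2* cannot be told apart.

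In rank, *Mt1* moved from the 884th highest FPKM in WT PBS to the 95th in WT ASNase, and it was 12th in Gcn2-/- ASNase and 13th in Atf4-/- ASNase. *Mt2* was 2547th in WT PBS, 26th in Gcn2-/- ASNase and 15th in Atf4-/- ASNase. Genes without a valid estimate entered these ranks at 0, so a place can be too high. Among them were *Hp*, *Hpx* and *Fgb* in both knockout groups given ASNase. With PBS these had FPKM values of 3656 to 6024 in Gcn2-/- and 3781 to 5224 in Atf4-/-. Together the pair made up 0.0176% of all summed FPKM in WT livers given PBS and 0.169% in those given ASNase, 0.150% and 1.39% in Gcn2-/- and 0.268% and 1.56% in Atf4-/- livers. *Mt2* was the smaller member throughout, at 21.2% of the pair in WT PBS and 43.7% in Atf4-/- ASNase, with 27.3%, 24.9%, 35.4% and 40.4% in WT ASNase, Gcn2-/- PBS, Gcn2-/- ASNase and Atf4-/- PBS. These shares carry no interval. Genes without a valid estimate added 0 to the sum, so each share is of the genes estimated and can be too high. This holds for both knockout groups given ASNase and for Atf4-/- PBS, where *Serpina1a* had no valid estimate. Over all groups 160 values in 45 genes were not valid, so the remaining groups can be affected too.

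**Figure D2:**
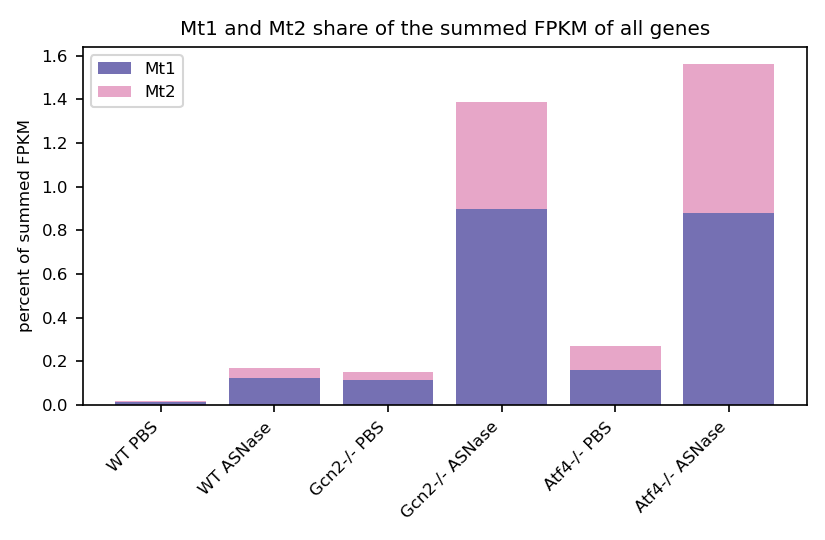
Mt1 and Mt2 as a percent of the summed FPKM of all genes (y axis) in each group (x axis), 1 group value each with no error. Genes without a valid estimate add 0 to the sum. The stacked bars reach 1.39% in Gcn2-/- ASNase and 1.56% in Atf4-/- ASNase and at most 0.268% in the other groups.

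ASNase was followed by higher metallothionein mRNA in WT liver, where 0.881% of all 9084 genes tested were called and both *Mt1* and *Mt2* were among them. *Mt1* was 7.95-fold and *Mt2* 11.1-fold higher with ASNase, differences of 2.99 (1.01 to 4.18) and 3.47 (1.85 to 4.80) on the log2 scale. *Mt2* stood 55th and *Mt1* 64th from the top of that comparison. In Gcn2-/- liver, with 3.69% of genes called, *Mt2* was called higher by 3.49 (1.83 to 4.98), an 11.3-fold difference. *Mt1* was 6.81-fold higher in value, 2.77 (0.35 to 4.27), but was not called, the lower bound under ASNase (1252) lying below the upper bound under PBS (1456). In Atf4-/- liver, with 7.37% of genes called, *Mt2* was called higher by 2.94 (0.98 to 4.19), or 7.65-fold, and *Mt1* was 6.69-fold higher in value, 2.74 (0.29 to 4.08), again with overlapping intervals. In these same comparisons other cell type markers moved as well. Acinar markers summed to 12.3 with PBS and 46.4 with ASNase in WT (*Ctrb1* and *Pnlip* called higher), to 9.10 and 4.94 in Gcn2-/-, with *Cpa1*, *Cel*, *Pnlip* and *Cpb1* listed at 0 in both, and to 14.0 and 281 in Atf4-/- (*Cpa1*, *Ctrb1* and *Pnlip* called higher). Markers of stratified squamous epithelium, a list chosen after values were seen with 8 of 9 genes in the table, summed to 1.20 and 37.0 in WT, 1.16 and 1.20 in Gcn2-/- and 0.967 and 5.30 in Atf4-/-. The part of these cells in the metallothionein values was not tested.

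The size of the metallothionein response was not shown to differ between genotypes. For *Mt1*, the response in Gcn2-/- minus that in WT was -0.22 (-2.92 to 2.26) on the log2 scale, and in Atf4-/- minus WT it was -0.25 (-2.97 to 2.14). For *Mt2* the same differences were 0.02 (-2.11 to 2.22) and -0.53 (-2.90 to 1.51). These ranges leave room for a response several times larger or smaller in a knockout, so they do not show that the responses were alike. Across all genes, responses differed by over 1.5 with a range leaving out 0 for 4.43% between Gcn2-/- and WT and 6.53% between Atf4-/- and WT.

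Without ASNase, both knockouts had more metallothionein mRNA than WT. In Gcn2-/- PBS against WT PBS (1.04% of genes called) *Mt1* was called higher by 3.20 (1.84 to 4.30), or 9.19-fold, and *Mt2* by 3.50 (2.06 to 4.80), or 11.3-fold. In Atf4-/- PBS against WT PBS (1.12% called) *Mt1* was called higher by 3.40 (2.24 to 4.47), or 10.6-fold, and *Mt2* by 4.73 (3.57 to 5.99), or 26.7-fold, the 11th highest of 9039 genes tested. These 2 comparisons and the response in WT share the WT PBS value, so a low estimate in that group would raise all 3. Between the knockouts under PBS, with 0.976% of genes called, 0 of the 6 genes were called, and the largest difference was *Mt2*, 1.24 (0.05 to 2.65) in favour of Atf4-/-.

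Under ASNase the knockouts again stood above WT. *Mt2* was called higher in Gcn2-/- than in WT (4.41% of genes called) by 3.52 (1.84 to 5.18), or 11.5-fold, and in Atf4-/- than in WT (8.25% called) by 4.20 (2.202 to 5.89), or 18.4-fold. *Mt1* was 7.88-fold and 8.92-fold higher in value with overlapping intervals, and was called in neither. Between the 2 knockouts under ASNase (3.19% called) *Mt1* differed by 0.18 (-2.34 to 2.66) and *Mt2* by 0.68 (-1.32 to 2.39), and neither was called.

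**Figure D3:**
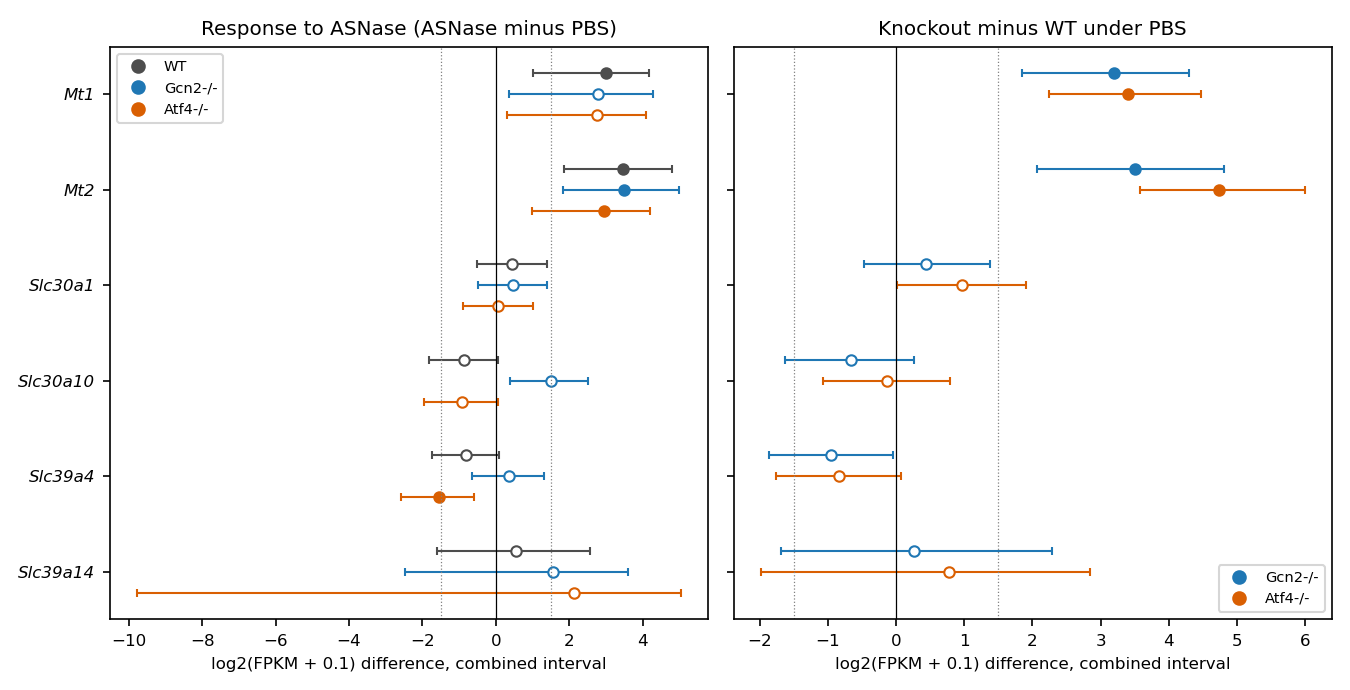
Differences of log2(FPKM + 0.1) (x axis) for the 6 genes (y axis), left for ASNase minus PBS in each genotype and right for knockout minus WT under PBS; bars are combined intervals, filled points are called and dotted lines mark 1.5. Mt1 and Mt2 lie right of 2.7 in all 5 comparisons, and the ASNase difference of Slc30a10 is positive in Gcn2-/- (1.49) and negative in WT (-0.86) and Atf4-/- (-0.92).

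Of the exporters, *Slc30a1* moved little. It encodes ZnT1, which moves zinc out across the plasma membrane (ENSMUSG00000037434, chr1:191906767-191913247, plus strand). In WT its FPKM was 6.59 (3.76 to 9.41) with PBS and 9.01 (5.10 to 12.9) with ASNase. The values were 8.96 (5.29 to 12.6) and 12.5 (6.999 to 17.9) in Gcn2-/-, and 12.9 (7.35 to 18.5) and 13.4 (7.58 to 19.2) in Atf4-/-, in the same order. All 6 intervals overlapped, the highest value was 2.03-fold the lowest, and the gene was called in 0 of the 9 comparisons. Its lowest group, WT PBS, was that of both metallothioneins, and the difference of Atf4-/- from WT under PBS was 0.96 (0.01 to 1.90). The antisense gene 1700034H15Rik overlaps *Slc30a1* and was listed at 0.0325 to 0.465.

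*Slc30a10*, whose protein ZnT10 exports manganese, responded to ASNase in opposite directions by value. The gene (ENSMUSG00000026614, chr1:185454848-185468762, plus strand, overlapped by the lincRNA gene Gm2061, which is not in the table) was at 5.86 (3.44 to 8.28) in WT PBS and 3.18 (1.74 to 4.62) in WT ASNase. It was at 3.67 (2.02 to 5.32) in Gcn2-/- PBS and 10.5 (5.31 to 15.6) in Gcn2-/- ASNase, and at 5.36 (3.02 to 7.69) and 2.78 (1.43 to 4.14) in Atf4-/- PBS and Atf4-/- ASNase. Gcn2-/- ASNase was the highest group and lay clear of WT ASNase and Atf4-/- ASNase, the lowest 2. Under ASNase it was called higher in Gcn2-/- than in WT by 1.69 (0.59 to 2.70), or 3.29-fold, and lower in Atf4-/- than in Gcn2-/-, at -1.87 (-2.95 to -0.76). Against its own PBS group the Gcn2-/- difference of 1.49 (0.39 to 2.50) stopped just short of both limits, the bounds meeting at 5.31 and 5.32. In WT and Atf4-/- the ASNase difference was -0.86 (-1.83 to 0.06) and -0.92 (-1.97 to 0.06), and neither was called. The responses themselves differed by 2.35 (0.92 to 3.75) between Gcn2-/- and WT and by -2.41 (-3.86 to -0.94) between Atf4-/- and Gcn2-/-, the latter comparison reaching that limit in 3.57% of all genes. Both rest on the same 2 Gcn2-/- values. With a pseudocount of 1 the difference of Gcn2-/- from WT under ASNase was 1.46 and no longer called.

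Of the importers, *Slc39a4* was lowest in Atf4-/- liver given ASNase. It encodes ZIP4, best known as the zinc importer of the intestine (ENSMUSG00000063354, chr15:76612383-76617384, minus strand). WT livers had an FPKM of 31.1 (18.4 to 43.8) with PBS and 17.6 (10.2 to 24.9) with ASNase, and Gcn2-/- livers 16.0 (9.32 to 22.7) and 20.6 (11.1 to 30.0). In Atf4-/- it was 17.4 (10.1 to 24.7) with PBS and 5.89 (3.10 to 8.69) with ASNase. The last interval lay below each of the other 5, and those 5 overlapped one another. ASNase was followed by a called decrease in Atf4-/-, -1.55 (-2.58 to -0.59), 2.95-fold lower, but not in WT, -0.82 (-1.74 to 0.09), or Gcn2-/-, 0.36 (-0.65 to 1.30). Under ASNase the gene was also called lower in Atf4-/- than in WT, -1.56 (-2.60 to -0.61), and than in Gcn2-/-, -1.79 (-2.84 to -0.75). The response in Atf4-/- differed from that in Gcn2-/- by -1.91 (-3.31 to -0.52), whereas its difference from WT, -0.73 (-2.11 to 0.60), included 0. With a pseudocount of 1 the ASNase difference in Atf4-/- was -1.42 and that of Atf4-/- from WT under ASNase -1.43, and neither was then called. WT PBS had the highest value, and Gcn2-/- PBS stood below it by -0.95 (-1.87 to -0.05) without being called. Beside the Atf4-/- ASNase value, the hepatocyte marker sum of that group was also the lowest of the 6, and its acinar marker sum the highest.

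*Slc39a14* had the highest level of the 4 transporters in every group but the least certain one. Its protein, ZIP14, imports zinc, manganese and iron not bound to transferrin and is induced in the hepatic acute-phase response (ENSMUSG00000022094, chr14:70303469-70351425, minus strand). With PBS it was at 49.98 (13.6 to 86.4) in WT, 60.1 (17.3 to 103) in Gcn2-/- and 85.3 (13.6 to 157) in Atf4-/-. With ASNase the values were 72.4 (18.0 to 127), 178 (11.2 to 344) and 371 (0 to 880). Both knockout groups given ASNase were highest in value, yet all 6 intervals overlapped and the gene was called in 0 comparisons. The ASNase differences were 0.53 (-1.61 to 2.57) in WT, 1.56 (-2.49 to 3.59) in Gcn2-/- and 2.12 (-9.77 to 5.04) in Atf4-/-, so a difference was not detectable with these intervals.

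The rest of the metallothionein, Slc30 and Slc39 genes were counted in the same way. Of 22 further genes, 14 exceeded an FPKM of 3 in at least 1 group (5 of 8 Slc30, 8 of 12 Slc39 and *Mt4*), and 1, *Mt4*, was called in any comparison. Since 0.881% to 8.25% of all genes were called per comparison, the lack of calls is no result about the other genes. In WT, Gcn2-/- and Atf4-/- livers the median ASNase difference of the Slc30 genes tested came to 0.12, 0.47 and 0.16 and that of the Slc39 genes to -0.11, 0.19 and 0.37, the transporters above included, beside -0.01, 0.02 and 0.08 over all genes tested. *Mt4* encodes a metallothionein of stratified squamous epithelium and lies upstream of *Mt2*. It was at 41.6 (17.9 to 65.3) in WT ASNase, 0.134 in WT PBS, 0.0688 in Gcn2-/- ASNase and 1.16 in Atf4-/- ASNase, and was listed at 0 in both knockouts under PBS. It was called higher with ASNase in WT, by 7.48 (5.79 to 8.86), and lower under ASNase in Gcn2-/- and Atf4-/- than in WT, at -7.95 and -5.05. The squamous markers given above were highest in the same group, WT ASNase, led by *Lor* at 18.8, *Krt15* at 7.54 and *Krt5* at 6.80. The part of such tissue in the *Mt4* value was not tested. *Mt3*, between them, reached at most 0.874. Of the genes flanking the cluster within 100 kb, *Bbs2* (1.68 to 3.58) was called in 0 comparisons and *Nup93* (1.81 to 7.33) in 2, both with the Atf4-/- ASNase group higher.

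**Figure D4:**
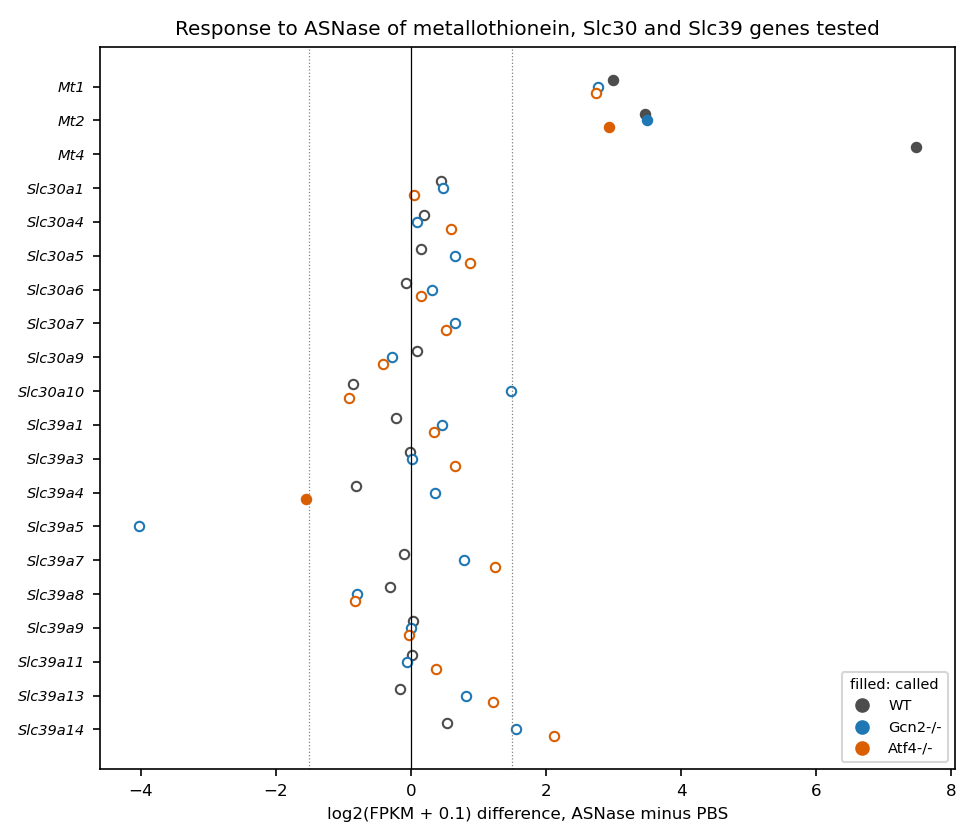
Difference of log2(FPKM + 0.1), ASNase minus PBS (x axis), for each metallothionein, Slc30 and Slc39 gene tested (y axis) in WT, Gcn2-/- and Atf4-/- livers, 1 point per genotype, filled where called, with dotted lines at 1.5. The filled points are Mt1, Mt2 and Mt4 in WT, Mt2 in both knockouts and Slc39a4 in Atf4-/-; the unfilled Slc39a5 point at -4.03 in Gcn2-/- has an FPKM of 3.41 with PBS whose interval reaches 0.

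Genes upstream of the metallothioneins and other targets of their regulators were read from fixed lists. Of 7 regulators (*Mtf1*, *Nr3c1*, *Stat3*, *Il6ra*, *Il6st*, *Nfe2l2* and *Cebpb*), all tested, 0 were called in any comparison. With 0.881% to 8.25% of all genes called per comparison, that is no result about these regulators. *Mtf1* was at 3.68 to 6.69 in the 6 groups with intervals that all reached 0. *Stat3* was at 24.2 and 24.6 in the WT groups, 23.9 and 63.9 in Gcn2-/- PBS and Gcn2-/- ASNase, and 44.2 and 120 in Atf4-/- PBS and Atf4-/- ASNase, with overlapping intervals.

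Of 14 targets of IL-6 and STAT3, all were tested and 0 called after ASNase in WT, with a median difference of -0.22 (-0.01 over all genes, of which 0.881% were called). In Gcn2-/- and in Atf4-/- 9 were tested, since 5 of the 14 had no valid estimate under ASNase. These were *Saa1*, *Saa2*, *Hp*, *Hpx* and *Fgb* in Gcn2-/-, at 3656 to 6024 with PBS. In Atf4-/- they were *Hp*, *Hpx*, *Fgb*, *Fga* and *Fgg*, at 2100 to 5224 with PBS. The medians of WT and of each knockout thus cover different genes. Of the 9 tested, 3 were called higher in Gcn2-/- (*Socs3*, *Il1r1* and *Steap4*), where 3.69% of all genes were called, and the median was 3.48 against 0.02 over all genes. In Atf4-/- 4 of its 9 were called higher (the same 3 and *Saa3*), where 7.37% of all genes were called, and the median was 2.95 against 0.08. *Saa3* was higher in value with ASNase in Gcn2-/- as well, at 876 with PBS and 12427 with ASNase. It was not called there, since the ASNase interval (0 to 29543) overlapped that of PBS (57.6 to 1694). *Steap4*, a metalloreductase, differed by 3.92 (2.19 to 5.04) in Gcn2-/-, *Il1r1*, the interleukin-1 receptor, by 3.48 (2.23 to 4.47) in Gcn2-/-, and *Saa3*, an acute-phase protein, by 4.85 (3.55 to 6.03) in Atf4-/-. Under PBS against WT, 2 of 14 were called higher in Gcn2-/- (*Saa3* and *Orm2*; 1.04% of all genes called) and 3 of 14 in Atf4-/- (*Lcn2*, *Orm2* and *Il1r1*; 1.12% called), with list medians of 1.07 and 1.104 against 0.063 and 0.0028 over all genes.

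Of 8 glucocorticoid targets, all tested after ASNase, 0 were called in WT, 2 higher in Gcn2-/- and 1 higher and 1 lower in Atf4-/-, beside 0.881%, 3.69% and 7.37% of all genes. The list's medians were 0.49, 1.30 and 0.85 in that order, against -0.01, 0.02 and 0.08 over all genes. *Zbtb16* was called higher in both, by 2.56 (1.54 to 3.67) in Gcn2-/-, and *Per1*, a clock gene, by 1.90 (0.96 to 2.85) in Gcn2-/-. *Tsc22d3*, which encodes the glucocorticoid-induced leucine zipper, was called lower in Atf4-/-, at -2.29 (-3.31 to -1.28). With PBS, 7 of the 8 were tested in each knockout against WT and 0 were called. The shares of all genes called were 1.04% in Gcn2-/- and 1.12% in Atf4-/-. The list medians there were -0.52 in Gcn2-/- and 0.33 in Atf4-/-, against 0.063 and 0.0028 over all genes. Of 8 copper-handling genes, 7 were tested and 0 called in each of the 9 comparisons, which at 0.881% to 8.25% of all genes called is no result about these genes.

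Profiles over the 6 groups were compared on centred log2(FPKM + 0.1) among 8862 genes with a mean FPKM over 3. *Mt1* and *Mt2* correlated at r = 0.99 over the 6 group values. With *Mt1* and *Mt2* in turn, *Slc30a1* correlated at 0.89 and 0.94 and *Slc39a14* at 0.88 and 0.90. *Slc30a10* did so at 0.018 and 0.006 and *Slc39a4* at -0.71 and -0.73. These are descriptions, since they rest on 6 group values that share scaling and alignment, and some groups share a genotype. The nearest gene to *Mt1* outside the 6 was *Sult1e1* (estrogen sulfotransferase) at a root mean square difference of 0.87, followed by *Syt12* and *Il1rn*. For *Mt2* the nearest, AC148977.1, was at 0.99, followed by *Scara5* and *Alpk1*, so no gene came as near to either as they came to each other, at 0.55. *Slc30a1* was nearest to *C4a* (0.09), then *Cadps2* and *Arid5b*, and *Slc39a14* to *Btg3* (0.13), then *Fndc3b* and *Snx10*. *Slc30a10* was nearest to *Xaf1* (0.08), which was at 26.4 in Gcn2-/- ASNase and 6.22 to 13.7 elsewhere, then Gm20496 and *Cd52*. *Slc39a4* was nearest to *Tjp3* (0.18), and *Mmp19* was also among its nearest (0.20).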

How the data were processed

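RNA-Seq of polyA RNA from 18 mouse livers was analysed. The authors aligned reads to mm10 with TopHat and estimated expression with Cuffdiff, per the labels. The table the authors deposited holds 1 FPKM value per gene and group, its interval bounds, in FPKM as well, and a status, with replicates pooled. The status column, of another kind, was deposited beside each value, and 160 values were not OK. All columns were mapped to a group, and 0 were left out. The deposited table gives no counts or depth, so precision was read from the intervals alone. The study's supplement lists the reads of each library, which were not used here.

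Groups were compared on log2(FPKM + 0.1) across the whole table, a gene being called by an FPKM over 3, a difference over 1.5 and separate intervals. Differences of responses used intervals combined as squares. Scripts ran in Python 3.11.15 with pandas 2.3.3, numpy 2.4.6 and matplotlib 3.10.9 and were tested on simulated data. Positions came from GENCODE M21 (GRCm38) and promoters from RefSeq.

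The genes and lists were chosen with earlier results of these data known. The text names the 6 genes, any called gene of the metallothionein, Slc30 and Slc39 families, at most 3 called genes of each other list by size of ASNase difference, and the 3 nearest profiles of each of the 6, of which 1 is not reported here. Names given outside this rule (*Mt3*, *Stat3*, *Mtf1*, flanking genes, markers and other called list genes) were chosen after their values were seen. The 10 alternatives covered pseudocount, filters, limits, intervals and scaling.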

Additional observations from a re-analysis of the deposited data

Results flagged for a closer look

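*Slc30a10* drew attention because its ASNase response differed between genotypes. Its log2 change in Gcn2-/- exceeded that in WT by 2.35 (0.92 to 3.75), and that in Atf4-/- minus Gcn2-/- was -2.41 (-3.86 to -0.94), both resting on the same Gcn2-/- values. *Slc39a4* drew attention for the same reason, its change in Atf4-/- minus that in Gcn2-/- being -1.91 (-3.31 to -0.52). Each is a comparison of combined Cuffdiff intervals with no test over mice.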

How the results depend on the processing

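No paired analysis was possible because each group has 1 value and the columns carry no replicate numbers, and for the same reason no replicate could be left out. After ASNase in Gcn2-/-, 1 of the 6 genes was called (*Mt2*), against 2 with combined intervals (with *Mt1*), 3 with no condition on intervals (with *Mt1* and *Slc39a14*), 2 with median-ratio scaling (with *Slc30a10*) and 3 with summed-FPKM scaling (with *Mt1* and *Slc30a10*). After ASNase in Atf4-/-, and in Atf4-/- against WT under ASNase, 2 were called, against 1 with a pseudocount of 1 (without *Slc39a4*), 3 with combined intervals (with *Mt1*) and 4 with no condition on intervals (with *Mt1* and *Slc39a14*). In Gcn2-/- against WT under ASNase, 2 were called, against 1 with a pseudocount of 1 (without *Slc30a10*) and 3 with combined intervals or no condition on intervals (with *Mt1*). With no condition on intervals, *Slc39a5* was also counted in the ASNase response of Gcn2-/- and between the knockouts under PBS (1 family gene against 0). The *Slc30a1* ASNase difference in Atf4-/- turned from 0.05 to -0.012 with median-ratio and -0.23 with summed-FPKM scaling. Between the knockouts under ASNase, summed-FPKM scaling gave -0.028 for *Mt1* and -0.11 for *Slc30a1*. That scaling moved the median of all genes by up to 0.33 in size. Of the single-gene differences under an alternative, 519 kept direction and call, 14 became called, 3 lost the call and 4 turned, and the counts of genes whose responses differed between genotypes stayed at 1, 0 and 2 in the 5 alternatives run for them. The cause of these shifts was not tested beyond the settings themselves.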
